A study of Mus musculus with 32 samples.

Results

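Tubulins are the proteins that assemble, as dimers of an α and a β subunit, into microtubules. The 10 genes described here are the α-tubulin genes Tuba1a, Tuba1b, Tuba1c and Tuba4a and the β-tubulin genes Tubb2a, Tubb2b, Tubb3, Tubb4a, Tubb5 and Tubb6. They were chosen by symbol, and all 10 were found, with 1 Ensembl gene each, among 55573 genes in the count table. On GRCm38, Tuba1b (chr15:98931425-98934565), Tuba1a (chr15:98949837-98953703) and Tuba1c (chr15:99029891-99038110) are neighbours, as are Tubb2a (chr13:34074274-34078007) and Tubb2b (chr13:34126748-34130466), while the other 5 lie on chromosomes 1, 8, 17 (both Tubb4a and Tubb5) and 18. Microtubules form the tracks along which motor proteins carry organelles and RNA granules through axons and dendrites. Vertebrates make several α and β isotypes from separate genes, and neurons are known for high levels of Tuba1a and of Tubb3, the isotype commonly used as a neuronal marker, whereas Tubb4a is also known as an isotype of oligodendrocytes.

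RNA was measured in primary hippocampal neurons of neonate mice grown for 15 days on porous inserts, from whose top and bottom faces the soma and neurite fractions were scraped. Cultures came from C57BL/6 mice (WT) or from Mettl3 Flox/Flox mice (Mettl3 KO). METTL3 is the catalytic subunit of the complex that writes N6-methyladenosine (m6A) on mRNA. Both genotypes received, on day 7, an AAV that expresses Cre with dTomato from the hSyn promoter, which is active in neurons. Mettl3 in the other cells of these cultures was not measured. To silence activity, all cultures had tetrodotoxin (1 µM) and the NMDA receptor blocker D-AP5 (50 µM) for 16 h, and were then left as they were (Ctrl) or given 55 mM KCl for 2 h. The 8 groups of genotype, fraction and treatment had 2 RNA-seq libraries each, from separate litters, and pups of a litter were pooled. Ctrl and KCl cultures shared litters, and the fractions of an insert were scraped from the same cells, but apart from the changes of the neurite fold the fits carry no term for this. Some neurites do not pass the pores and remain in the soma fraction.

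The 16 libraries held 33789183 to 71394235 counts, of which the 10 tubulin genes took 0.909 to 1.38%. Mettl3 stood at 8.90 to 17.3 CPM (counts scaled to a common library size) in WT libraries. In Mettl3 KO libraries it stood at 3.88 to 11.6 CPM, and the ranges overlapped when fractions and treatments were pooled. These counts cover all exons of the gene, whereas the paper shows loss of the exon between the loxP sites. It also reports near complete loss of METTL3 protein and lower m6A in Mettl3 KO neurons. Within each fraction and treatment the mean was lower in Mettl3 KO than in WT. Ctrl means were 10.2 against 17.0 CPM in soma and 5.46 against 12.4 CPM in neurites. KCl means were 7.52 against 14.2 CPM in soma and 5.89 against 9.89 CPM in neurites. Marker genes of neurons were detected in every library, with a summed level of 2795 to 5424 CPM in 14 libraries. The labels give only replicate numbers, and same-numbered soma and neurite libraries of a genotype and treatment are taken here as 1 insert. The soma and neurite libraries of the KCl-treated Mettl3 KO insert 1 (replicate 1) stood apart. The neuronal marker sum there was 1889 CPM in the soma library and 1041 CPM in the neurite library. Their oligodendrocyte lineage marker sums were 3647 and 7266 CPM, against 58.2 to 204 CPM in the other 14 libraries, and their astrocyte marker sums were 9591 and 18569 CPM, against 1201 to 7151 CPM. The microglia sums were 228 and 166 CPM, against 10.7 to 33.7 CPM, and the fibroblast and vascular sums 136 and 731 CPM, against 13.9 to 84.4 CPM. No marker was at 0 in these libraries. Some results that rest on this insert are given with and without it, and the others only with it. The latter include the genotype difference of the soma KCl response and the spread of the Mettl3 KO libraries. In bulk samples, fewer cells of a type and less RNA per cell cannot be told apart.

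The tubulin genes differ widely in level. Per kb of exon, over the 8 WT libraries, Tuba1a was highest, at 1816 to 2327 CPM per kb. Tuba1c, Tubb2a and Tuba1b followed, at 795 to 991, 761 to 913 and 667 to 821 CPM per kb, and the ranges of neighbours in this order overlapped. Tubb2b stood at 361 to 489 and Tubb3 at 355 to 434 CPM per kb, also with overlapping ranges. Tubb4a and Tubb5 followed at 217 to 265 and 182 to 258 CPM per kb. Tuba4a, an α-tubulin whose gene does not encode the C-terminal tyrosine found in most α-tubulins, stood at 24.6 to 38.9 CPM per kb, below all of these. Tubb6 was lowest, at 2.13 to 4.26 CPM per kb. The order had 5 steps without overlap between neighbours, those below Tuba1a, Tuba1b, Tubb3, Tubb5 and Tuba4a.

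**Figure D1:**
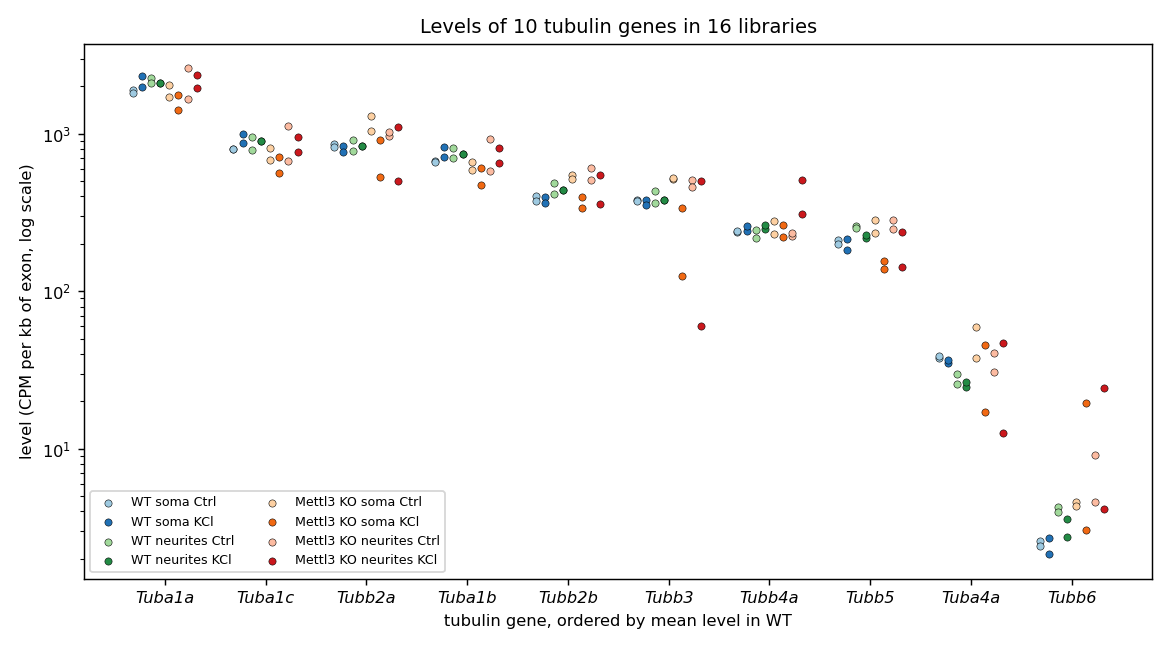
Level of each tubulin gene (CPM per kb of exon, log axis) in 16 libraries, 2 points per group. Tuba1a sits highest, at 1816 to 2327 in WT, and Tubb6 lowest, at 2.13 to 4.26. Points of the KCl-treated Mettl3 KO groups spread most for Tubb3 and Tubb6.

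These counts do not separate the isotypes equally well. Reads that map to several places were counted at each of them, and reads were counted without regard to strand. Of the 50-base stretches of Tuba1a transcripts, 75.5% also occur in another gene, as do 75.1% of those of Tuba1b and 52.7% of those of Tuba1c. The share was 49.6% for Tubb2a and 36.9% for Tubb2b, most of it between that pair, and 35.4% for Tuba4a, of which most lies in the overlap with Stk16, a gene on the opposite strand. It was 0 for Tubb3 and Tubb6, 0.184% for Tubb4a and 0.0892% for Tubb5. The levels of Tuba1a, Tuba1b, Tuba1c, Tubb2a, Tubb2b and Tuba4a are therefore uncertain as levels of single genes.

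In WT Ctrl cultures, which ask which RNAs lie more in neurites than in soma at rest, Tubb6 was the sole tubulin gene called. Tubb6 stood at 6.31 and 5.88 CPM in soma and at 10.4 and 9.64 CPM in neurites. The neurite libraries were both above the soma libraries. The log2 fold of neurites over soma was 0.65 (SE 0.19, n = 2 against 2, 95% interval 0.22 to 1.07), with an edgeR quasi-likelihood p of 0.0391 after Benjamini-Hochberg adjustment over all genes. A call required 1.5-fold and an adjusted p of at most 0.05, and 13.6% of all genes met it (9.01% higher in neurites, 4.54% lower). The 1 of 10 is near that share. At an unadjusted p under 0.05 and any fold there were 3 of 10, against 34.5%, and at an adjusted p of at most 0.05 and any fold 2 of 10, against 19.5%. DESeq2 also called 1. Tubb6 lost its call with an adjusted p of 0.0900 to 0.192 when any 1 of the 4 libraries compared was left out. The summed astrocyte markers were also higher in WT neurites (2029 to 3266 CPM) than in WT soma (1201 to 1637 CPM), and in this comparison 5 of 10 astrocyte markers and 5 of 9 fibroblast and vascular markers tested were called higher in neurites. Their part in the Tubb6 difference was not tested.

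Tuba4a went the other way. It stood at 139.9 and 143.9 CPM in WT Ctrl soma and at 109.9 and 94.7 CPM in neurites, so both neurite libraries were below both soma libraries. Its log2 fold was -0.54 (SE 0.11, interval -0.78 to -0.30, adjusted p 0.00727, edgeR), which passes the p threshold but not 1.5-fold. After KCl, Tuba4a was again lower in neurites, at 91.0 and 98.1 CPM against 129.8 and 135.3 CPM in soma (log2 fold -0.48, SE 0.11, adjusted p 0.0167). In a fit of all 16 libraries the folds were -0.44 in Ctrl (adjusted p 0.904, edgeR) and -0.48 after KCl (adjusted p 0.987, edgeR). With 1 library left out, they ran from -0.62 to -0.44 in Ctrl and from -0.51 to -0.43 after KCl. Some of those fits did not pass the p threshold. No overlap between fractions occurred in either treatment. Part of these counts may come from Stk16, since 37.3% of Tuba4a exon bases overlap it.

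The remaining 8 genes differed less between fractions at rest. Tubb5, a broadly expressed β-tubulin, stood at 706 and 661 CPM in soma and at 859.6 and 837 CPM in neurites. Its log2 fold was 0.24 (SE 0.10, unadjusted p 0.0408, adjusted p 0.127). The other 7 lay between -0.12 for Tubb4a and 0.17 for Tuba1a, with adjusted p of 0.232 or above. Tubb3 stood at 713 and 696 CPM in soma and at 810.5 and 683 CPM in neurites, so the fractions overlapped, and its interval of -0.21 to 0.24 lies within 1.5-fold in either direction. Over the 10 genes the median log2 fold was 0.08, and over all genes it was -0.10.

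**Figure D2:**
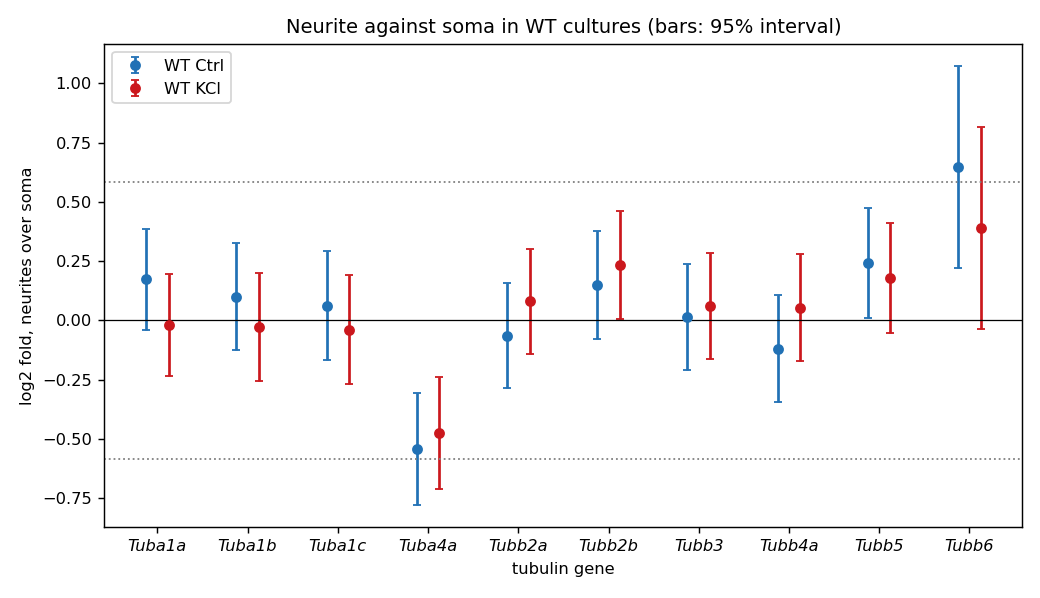
Log2 fold of neurites over soma for 10 tubulin genes in WT Ctrl and WT KCl cultures (points, n = 2 libraries per fraction), with 95% intervals as bars and dotted lines at 1.5-fold. Tubb6 at rest (0.65) and Tuba4a at rest (-0.54) lie farthest from 0.

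In KCl-treated WT cultures no tubulin gene was called for the fraction by edgeR, against 9.60% of all genes, and DESeq2 called 0. At an unadjusted p under 0.05 there were 2 of 10, against 28.7%, and at an adjusted p of at most 0.05 and any fold 1, Tuba4a, against 13.4%. The 2 were Tuba4a and Tubb2b, whose log2 fold was 0.23 (SE 0.10, unadjusted p 0.0466, adjusted p 0.167). Tubb6 stood at 5.19 and 6.62 CPM in soma and at 6.69 and 8.71 CPM in neurites. The lowest neurite library lay just above the highest soma library. The Tubb6 log2 fold was 0.39 (SE 0.19, adjusted p 0.211). In this treatment 3 of 10 astrocyte markers and 0 of 9 fibroblast and vascular markers were called higher in neurites. The change of the Tubb6 fold from Ctrl to KCl was -0.26 (interval -0.81 to 0.30, unadjusted p 0.323, edgeR with terms for the insert). No tubulin gene changed its fold by 1.5-fold at an unadjusted p of 0.05, where 3.36% of all genes did, and 0 had an unadjusted p under 0.05 at any fold (4.16% of all genes) or was called by DESeq2.

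KCl was given to ask which RNAs respond to depolarization, and in WT cultures it left the tubulin genes within 2-fold. In WT soma, edgeR called 0 of 10 (2-fold, adjusted p at most 0.05), against 6.70% of all genes, with 1 gene at an unadjusted p under 0.05 (26.1% of all genes) and 0 by DESeq2. That gene was Tuba1a, which stood at 3403 and 3274 CPM in Ctrl and at 4195 and 3577 CPM after KCl. Both KCl libraries were above both Ctrl libraries, and the log2 fold was 0.22 (SE 0.10, unadjusted p 0.0486, adjusted p 0.188). In WT neurites, edgeR again called 0 of 10, against 5.03% of all genes, with 1 at an unadjusted p under 0.05 (22.8% of all genes) and 0 by DESeq2. That was Tubb4a, at 547 and 483.5 CPM in Ctrl and at 556 and 589.5 CPM after KCl (log2 fold 0.24, SE 0.10, adjusted p 0.193). Across both fractions the folds ran from -0.29 for Tubb6 in neurites to 0.24 for Tubb4a in neurites. In WT soma the 95% intervals of all 10 genes lay between -0.46, the lower bound of Tubb6, and 0.46, the upper bound of Tuba1c.

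The α-tubulins of the Tuba1 group lay on opposite sides of the mean of their Ctrl libraries in KCl-treated soma of the 2 genotypes. In Mettl3 KO, however, the Ctrl and KCl libraries overlapped. Set against the mean log2 CPM of their own Ctrl libraries, the KCl libraries of Tuba1a differed by 0.33 and 0.10 in WT and by -0.08 and -0.40 in Mettl3 KO. For Tuba1b the values were 0.30 and 0.08 in WT and -0.05 and -0.40 in Mettl3 KO, and for Tuba1c 0.31 and 0.13 against -0.07 and -0.39. In Mettl3 KO soma Tuba1a stood at 3668 and 3098 CPM in Ctrl and at 3195 and 2550 CPM after KCl. The KCl value of insert 1 thus lay between the Ctrl values, as it did for Tuba1b and Tuba1c. Each of these genes shares 36.7 to 53.6% of its 50-base stretches with each of the others, and shared reads were counted at every match, so they are not fully separate observations. The difference between genotypes was -0.48 for Tuba1a (interval -1.43 to 0.47, unadjusted p 0.290, edgeR interaction term), which is within the spread of the libraries. Tubb5, whose reads are almost all its own, differed by 0.07 and -0.18 in WT soma and by -0.89 and -0.72 in Mettl3 KO soma. Its difference between genotypes was -0.78 (interval -1.61 to 0.05, unadjusted p 0.0639, adjusted p 0.994, edgeR interaction term). The first Mettl3 KO value of each gene here is from insert 1, and neither genotype difference was fitted without that insert.

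The Mettl3 KO comparisons ask whether tubulin RNAs depend on the m6A writer. At rest, edgeR called 0 of 10 in soma (1.5-fold, adjusted p at most 0.05), against 0.185% of all genes, and 0 of 10 in neurites, against 0.188%. In both, 0 had an unadjusted p under 0.05, against 8.97% and 7.47% of all genes, and DESeq2 called 0. The folds of KO over WT at rest ran from -0.07 for Tuba1c in soma to 0.86 for Tubb6 in soma. Tubb6 stood at 11.1 and 10.6 CPM in Mettl3 KO soma, above both WT soma libraries at 6.31 and 5.88 CPM, and the interval of its log2 fold was wide, at -0.87 to 2.58. In neurites Tubb6 stood at 22.2 and 11.2 CPM in Mettl3 KO and at 10.4 and 9.64 CPM in WT. The summed astrocyte markers were 2060 and 2472 CPM in Mettl3 KO Ctrl soma and 1201 and 1218 CPM in WT Ctrl soma, and overlapped in Ctrl neurites, at 2933 and 7151 CPM against 2029 and 3266 CPM. Their part was not tested. Both Mettl3 KO soma libraries were also above both WT ones for Tubb2a (1689 and 2079 against 1381 and 1325 CPM), Tubb2b (1256 and 1181 against 920.2 and 859 CPM), Tubb3 (958 and 980.1 against 713 and 696 CPM) and Tubb5 (780.1 and 947 against 706 and 661 CPM). Their log2 folds were 0.50, 0.48, 0.48 and 0.36, each with an interval that held 0. The share of all genes with both Mettl3 KO soma libraries above both WT ones was not counted. The order of these libraries is therefore not read as a result about the tubulin genes. Without the KCl-treated insert 1 in the fit, the soma folds were 0.82 for Tubb6, 0.46 for Tubb2a, 0.44 for Tubb2b and 0.45 for Tubb3. Their unadjusted p in edgeR were 0.0170 to 0.0250 and their adjusted p 0.178 to 0.208. That fit, added after the data were seen, called 0 of 10 tubulin genes and 419 genes in all, against 44 in the main fit. Its share of all genes at an unadjusted p under 0.05 was not counted.

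Replicates of the Mettl3 KO groups agreed less than those of WT, so that the biological coefficient of variation was 0.49 among the 8 Mettl3 KO libraries and 0.15 among the 8 WT libraries in the neurite comparisons at rest. The 8 Mettl3 KO libraries include those of the KCl-treated insert 1. In Ctrl neurites the SD over genes of the log2 ratio of replicates was 0.72 in Mettl3 KO and 0.66 in WT. In Ctrl soma it was 1.07 and 0.32. No tubulin gene was called between neurites and soma in Mettl3 KO, at rest or after KCl, where 0% of all genes were called in both. In these comparisons edgeR found 0 of 10 at an unadjusted p under 0.05, against 5.49% of all genes at rest and 0.570% after KCl, and DESeq2 called 0. The change of the neurite fold from WT to Mettl3 KO at rest was past 1.5-fold at an unadjusted p of 0.05 for 0 of 10, against 4.19% of all genes, with 0 under 0.05 at any fold (4.20% of all genes) and 0 by DESeq2. For Tuba4a that change was -0.01 (interval -0.63 to 0.62).

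After KCl, insert 1 of Mettl3 KO set the tubulin pattern apart. In insert 1, Tubb3 stood at 234 CPM (soma) and 112 CPM (neurites), and in insert 2 at 629 and 940 CPM, while WT KCl libraries held 663 to 708 CPM. Tuba4a followed Tubb3, at 63.6 and 46.3 CPM in insert 1 and 168 and 173 CPM in insert 2. Tubb4a did not: it stood at 1137 CPM in neurites of insert 1, the highest of all 16 libraries, and at 586.5 CPM in its soma. Tubb6 was also highest there, at 47.3 CPM in soma and 59.5 CPM in neurites, against 7.38 and 10.1 CPM in insert 2. These are the libraries with high glial, fibroblast and vascular marker sums, and the part of those markers was not tested.

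The β-tubulin composition showed the same split. Shares are of the level per kb summed over the β-tubulin genes described here. Other β-tubulin genes, such as Tubb4b (group means of 86.4 to 179 CPM per kb), are not in that sum. Tubb3 made up 16.7 to 19.9% of it in 14 libraries, and 8.82% and 3.76% in soma and neurites of insert 1. Tubb4a made up 8.67 to 13.5% in the 14, and 18.5% and 32.0% in insert 1. Tubb6, at most 0.351% elsewhere, reached 1.37% and 1.53%. Among the α-tubulin genes described here, Tuba1a held 54.6 to 58.0% in all 16 libraries, a share that shared reads can flatten.

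**Figure D3:**
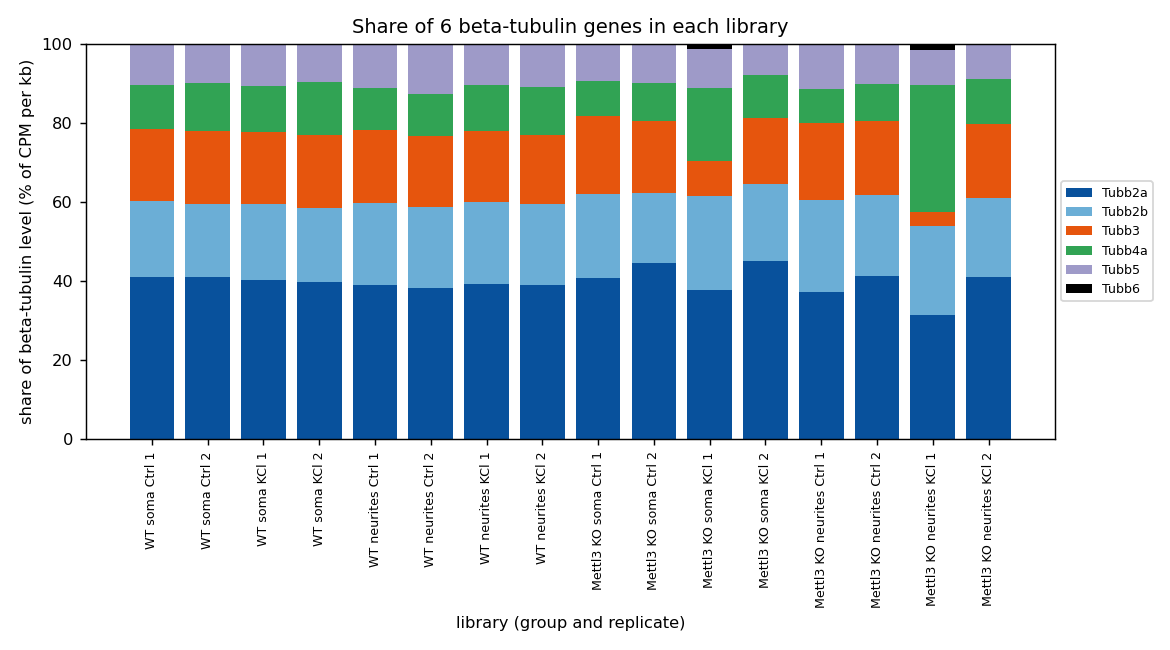
Share of each of 6 β-tubulin genes in their summed level (percent of CPM per kb) in each of 16 libraries, stacked to 100. Tubb4b is not included. The 2 libraries of the KCl-treated Mettl3 KO insert 1 show a thin Tubb3 band (8.82% and 3.76%) and a wide Tubb4a band (18.5% and 32.0%).

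**Figure D4:**
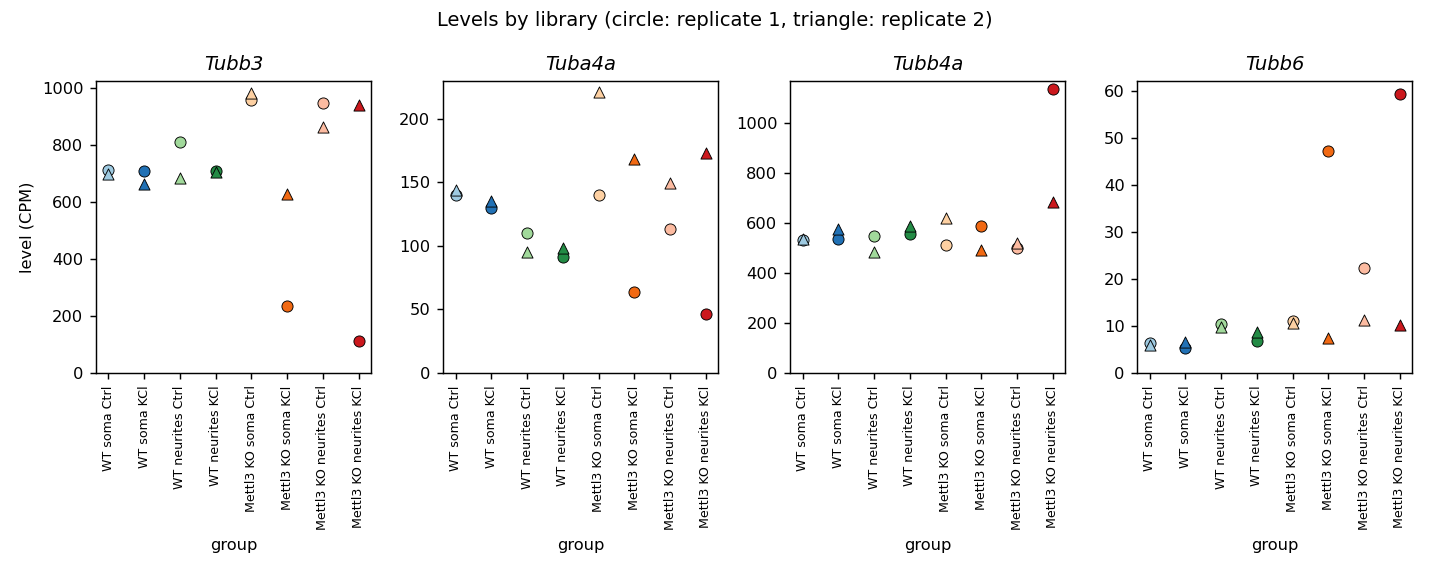
Level (CPM) of Tubb3, Tuba4a, Tubb4a and Tubb6 in each library by group, circles for replicate 1 and triangles for replicate 2, each axis from 0. The circles of the KCl-treated Mettl3 KO groups lie low for Tubb3 (234 and 112) and high for Tubb6 (47.3 and 59.5).

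Between KCl-treated genotypes, edgeR called 0 of 10 in soma, against 0.212% of all genes, with 1 at an unadjusted p under 0.05 (14.5% of all genes) and 0 by DESeq2. It called 0 of 10 in neurites, against 0.440%, with 2 at an unadjusted p under 0.05 (24.1% of all genes). DESeq2 called 1, Tubb6, where it called 2596 of 22488 genes. In neurites the log2 fold of KO over WT was 2.19 for Tubb6 (SE 0.82, adjusted p 0.150) and 0.69 for Tubb4a (SE 0.27, adjusted p 0.157), and in soma it was 2.22 for Tubb6 (SE 0.81, adjusted p 0.269). Without insert 1 the Tubb6 fold was 0.39 in neurites (adjusted p 0.712) and 0.31 in soma (adjusted p 0.891), and the Tubb4a fold in neurites was 0.26 (adjusted p 0.615). Tuba4a, at 0.23 in neurites with the insert, was 0.88 without it (unadjusted p 0.00915, adjusted p 0.201). With the neurite library of insert 2 left out instead, 3 of 10 were called in neurites, Tubb3 (-2.65), Tubb4a (1.00) and Tubb6 (2.95), with the lone library assumed to vary like the other groups. That fit called 7239 genes in all.

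DART-seq measured m6A in the same design: a fusion of the deaminase APOBEC1 with the m6A-binding YTH domain turns C next to m6A into U, and the percent of reads with U at the C is the C2U value. The sites were called against the Mettl3 KO libraries, so a lower value there is a condition of the call. Only values averaged over libraries are used here, so there are no replicates and no test, and depth is unknown. The averages mix Ctrl and KCl libraries, and those of WT and of Mettl3 KO also mix soma and neurites. Of 18231 called sites in 5643 RNAs, 15 lie in 8 of the 10 tubulin genes. Tuba1a, Tuba1b and Tuba1c share reads, and a coding site of each lies in a stretch identical between these genes over 92 to 446 bases. Reads of 50 bases there mostly fit each of these genes, so their sites and scores need not be separate. The counts of sites and RNAs here and below list them separately. No site is listed for Tubb2a or Tubb2b. Of the 15 sites, 12 lie in coding sequence, 2 in the 3' UTR of Tuba4a and 1 in the 5' UTR of Tuba1b. The sequences below show 21 bases around sites of Tuba4a and Tubb4a with high values among the tubulins, and around the site of Tubb3. They are read from GRCm38 on the gene's strand, 5' to 3', and capitals mark 5 bases with the converted C as the letter before the last. Of the sites shown, only that of Tuba4a holds the full motif given below.
Tuba4a, 3' UTR, chr1:75215078-75215098, minus strand: gatgggcagGAACAagggcaa
Tubb4a, coding, chr17:57081405-57081425, minus strand: ctgcatcgaCAACGaggcctt
Tubb3, coding, chr8:123420800-123420820, plus strand: ggagtacccCGACCgcatcat

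Conversion was low at the tubulin sites. The 15 values ran from 0.489% to 5.69%, and 13 lay below 3.54%, the median of all called sites, with 8 below 1%, as were 6.42% of all sites. The highest was the Tuba4a 3' UTR site shown, at 5.69% and 536 bases after the stop codon. The coding site of Tubb6 stood at 5.56%. Both 3' UTR sites of Tuba4a lie where exons of Stk16 run on the opposite strand. The full motif (A, G or T, then A or G, then AC, then A, C or T) was present at 4 of the 15 sites (26.7%) and at 70.9% of all sites.

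**Figure D5:**
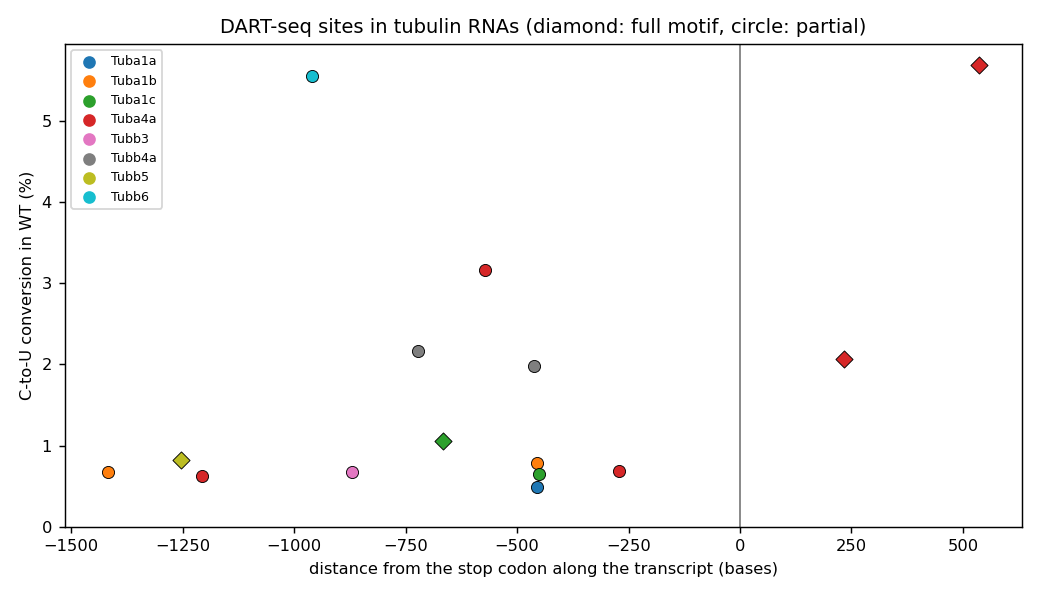
C-to-U conversion in WT (percent) at 15 sites in 8 tubulin RNAs against distance from the stop codon along the transcript (bases, 0 is the stop codon). Diamonds hold the full motif and circles do not; the highest points are a Tuba4a site at 5.69% and a Tubb6 site at 5.56%.

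Summed over sites, Tuba4a had the highest score of the tubulin RNAs, 9.44% in WT over 5 sites, against 0.875% in Mettl3 KO. Tubb6 had 5.56% in WT and 0% in Mettl3 KO, and Tubb4a had 4.14% and 1.94%. Tubb3, with 1 site, had 0.680% and 0.325%. All 8 scores lay below the median of all RNAs with a site, 10.3%. The score was higher in neurites than in soma for 7 of the 8, where 68.8% of all RNAs had that order, with Tubb5 (0.683% in neurites, 0.967% in soma) as the exception. Tubb6 stood at 10.8% in neurites and 0.521% in soma, Tubb3 at 1.40% and 0.0519%, and Tuba4a at 13.4% and 6.60%. The Tubb6 and Tubb3 scores each rest on 1 site, and Tubb6 had the lowest RNA level of the tubulin genes described here.

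Genes that act on tubulin were measured beside it. At rest in WT, where 13.6% of all genes were called, of 21 genes for folding tubulin (prefoldins and tubulin cofactors), 2 were higher in neurites and 1 lower: Pfdn5, a prefoldin subunit (log2 fold 1.06, adjusted p 0.00188), Tbcb, a tubulin cofactor (0.61, adjusted p 0.00928), and Tbce, another cofactor, which fell (-0.81, adjusted p 0.00313). Of 23 modifying enzymes 2 were higher, Ttl, the ligase that returns tyrosine to α-tubulin (0.73, adjusted p 0.0463), and Svbp, the partner of the enzymes that remove it (0.70, adjusted p 0.00884), and 1 lower, the polyglutamylase Ttll4 (-1.17, adjusted p 0.00793). Of 14 severing and plus-end genes, the katanin subunit Katna1 was lower (-0.65, adjusted p 0.0140), and of 8 γ-tubulin ring complex genes 0 passed both thresholds. After KCl, Pfdn5 (0.80), Ttl (0.78) and Svbp (0.59) were again higher in neurites, where 9.60% of all genes were called, and Katna1 lower (-0.72), with adjusted p of 0.0473 or less. Against Ctrl, Vash1, one of the enzymes that remove tyrosine, fell in WT soma (-2.0, adjusted p 0.00102) and WT neurites (-1.73, adjusted p 0.00499), by edgeR, and Ttll13, a tubulin ligase-like enzyme, rose in WT soma (1.08, adjusted p 0.0283). At an unadjusted p, the neurite fold of Ttll4 was higher after KCl in WT (1.04, p 0.0128) and in Mettl3 KO at rest (1.41, p 0.00720), as was that of Svbp in Mettl3 KO (1.72, p 0.0234), and their adjusted p were 0.934 or above. In the 6 other Mettl3 KO comparisons 0 genes of these lists were called. Of 10 other tubulin genes, 7 were tested at rest and 0 passed both thresholds. Tubb4b, a β-tubulin, was -0.41 (adjusted p 0.0218) and Tubg2, a γ-tubulin, 0.45 (adjusted p 0.0355).

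Over the 16 libraries, which share 2 libraries that stand apart, the genes whose log2 CPM ran most like each tubulin were listed among 15146 genes. For Tuba1a, Tuba1b and Tuba1c they were the processed pseudogenes Gm3756, Gm3226 and Gm14150, at Pearson r of 0.956 to 0.999, which share 23.4 to 43.5% of the 50-base stretches of these genes. For Tubb3 they were Nefh, Hpcal1 and Trim46 (r of 0.970, 0.970 and 0.967), but over the 8 WT libraries alone these were 0.524, 0.461 and 0.301. For Tubb6 they were Tnfrsf10b, Glipr2 and Inava (r of 0.978, 0.977 and 0.975), and 0.924, 0.724 and 0.827 in WT.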

How the data were processed

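The authors trimmed reads with Flexbar, aligned them with STAR 2.7.7a to mm10 and counted them with featureCounts 2.0.1, deposited as raw counts per gene; multi-mapping reads were counted at each place and strand was not used. The authors' DART-seq tables hold C2U values as a fraction of reads and scores summed per RNA, averaged over libraries. Deposited tables of the authors' own fold changes and p-values were used only to pair gene identifiers with names and biotypes.

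Genes averaging 10 or more counts over the libraries of a comparison were tested; 37 mitochondrial genes, all at 0, were left out. Counts were scaled by TMM and tested with edgeR 4.0.16 quasi-likelihood (R 4.3.3), adjusted by Benjamini-Hochberg over all genes, on the 8 WT, 8 Mettl3 KO or all 16 libraries. Changes of the neurite fold used terms for the insert. DESeq2 1.42.0, RLE scaling, other filters, other library sets, a replicate block and leaving out each library were alternatives. Scripts were tested on simulated data. CPM are over the 16 libraries, log2 CPM with a prior count of 2. The interaction between genotypes and fits without the KCl-treated Mettl3 KO insert 1 were added after the data were seen. The members and lists were chosen with earlier results of these data known. The named genes were the 10 tubulins and, in the lists, those past a threshold, with Tubb4b and Tubg2 chosen after their values were seen. RefSeq and GENCODE tables of GRCm38 gave positions and sequences. With 2 libraries per group, p-values rest on a spread pooled over the libraries of a fit. Libraries of shared inserts or litters count as separate there, apart from the insert terms. WT and Mettl3 KO cultures came from separate mouse lines and litters, so genotype cannot be told apart from these. The sequences of some sites are not reported here.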

Additional observations from a re-analysis of the deposited data

Results flagged for a closer look

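Tubb4a differed between genotypes in its neurite fold after KCl. The log2 fold of neurites over soma was 0.70 higher in Mettl3 KO than in WT (interval 0.07 to 1.32, unadjusted p 0.0330, adjusted p 1.00 over all genes, edgeR with terms for the insert). This was 1 of 30 interaction values computed for the tubulin genes, added after the data were seen. Tubb4a stood at 586.5 and 491.5 CPM in Mettl3 KO soma and at 1137 and 686 CPM in neurites, against 537 and 575 CPM in WT soma and 556 and 589.5 CPM in WT neurites. Without insert 1 the difference was 0.44 (interval -0.28 to 1.17, unadjusted p 0.190). The oligodendrocyte lineage marker sum of that insert was 3647 CPM in soma and 7266 CPM in neurites, and its part was not tested.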

How the results depend on the processing

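Of 1430 refitted values of the 120 tubulin folds, 1275 kept their sign, and the 155 that changed it lay within 1 SE of 0 and were not called; 7 calls were gained and 5 lost. The count of tubulin genes called between WT neurites and soma at rest fell from 1 to 0 in a fit of all 16 libraries, and ranged from 0 to 1 when each library was left out. There Tubb6 (0.63 to 0.77) was lost in all 4, and Tuba4a (-0.62) was called without WT neurite replicate 1. For Mettl3 KO against WT after KCl, the count rose from 0 to 1 with no filter on low counts, in soma and in neurites, and from 0 to 1 with DESeq2 in neurites. The count over all genes rose with it, from 51 to 2118 in soma and from 99 to 3284 in neurites without the filter, and to 2596 with DESeq2. In neurites it ranged from 0 to 3 over libraries left out, with 3 without Mettl3 KO replicate 2, where 7239 genes were called. The cause was not tested. The labels do not say that a replicate number marks a litter or insert. Same-numbered libraries deviated together in some groups only (correlations of -0.11 to 0.08 among WT groups, and in Mettl3 KO 0.82 between soma and neurites after KCl, 0.02 between them at rest, and 0.14 between Ctrl and KCl in either fraction). With a replicate block 1 tubulin gene was called between WT neurites and soma at rest and 0 in the other comparisons, and without the insert terms 0 for both changes of the neurite fold.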
